A study of Mus musculus with 24 samples.

Results

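The genes described here lie in the first 10 Mb of mouse chromosome 17. They were chosen by position and level: a start below 10 Mb in the deposited count table (build mm10), a count above 10 in at least 6 of the 24 libraries, and no name beginning like a ribosomal protein, respiratory chain or ion channel gene. Of 43346 genes in the table, 83 lie in the window, 50 met the count rule and 49 were kept; 19163 genes of the whole table met the same count rule. Rps6ka2, a signalling kinase whose name begins like those of small ribosomal proteins, was left out by its name alone. The window was selected on genotype differences already seen in these libraries, so the genotype values below are a description of it and support nothing about the window. The 49 genes comprised 35 protein-coding genes, 4 lincRNAs, 2 antisense genes, 2 processed transcripts and 6 pseudogenes of 3 kinds, per the biotypes in the table.

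Cortex RNA of 24 C57BL/6 mice was measured by bulk poly-A RNA sequencing, with 6 mice in each of 4 groups. Every mouse carried 1 Cx3cr1CreER allele, a tamoxifen-dependent Cre recombinase under the promoter of a microglial receptor gene, together with a TREM2 construct labelled TREM2-WT+/+ or TREM2-R47H+/+. Control mice of both genotypes had been given corn oil, and induced mice had been given tamoxifen to switch on TREM2 in microglia, the resident macrophages of the brain. R47H is a variant of this microglial lipid receptor that is associated with risk of Alzheimer's disease. The groups are called WT control, R47H control, WT induced and R47H induced. Tamoxifen and induction went together in every mouse, as no Cre-free mice given tamoxifen were analysed here. The labels do not give the site or species of the constructs, the litters or the ages, and the series text gives 3 males and 3 females per group without saying which library is which. In bulk tissue, fewer cells of a type and less RNA per cell cannot be told apart.

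The proximal part of chromosome 17 holds the mouse t complex, a region known for naturally occurring inverted haplotypes, for genes expressed in testis and cilia, and for tandem copies of genes. Dynlt1, a dynein light chain first named for its place in that complex, Rsph3, a radial spoke protein of cilia, and Rnaset2, a lysosomal ribonuclease, each have several copies there. The window also holds neuronal genes such as Pde10a, the cyclic nucleotide phosphodiesterase that marks striatal projection neurons, and immune genes such as Tagap, a GTPase-activating protein of activated lymphocytes, and Ccr6, a chemokine receptor.

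Several of the results turn on copies that are nearly the same in sequence, so a stretch of each is shown, from the transcripts of GENCODE M21. The coding sequences of Dynlt1a, Dynlt1c and Dynlt1f were identical over 339 bases, and that of Dynlt1b differed from them at 1 base. The first 120 coding bases are given with that base in capitals.
Dynlt1a: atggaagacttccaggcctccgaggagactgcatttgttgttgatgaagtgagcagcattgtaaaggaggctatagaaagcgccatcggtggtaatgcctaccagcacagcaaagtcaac
Dynlt1b: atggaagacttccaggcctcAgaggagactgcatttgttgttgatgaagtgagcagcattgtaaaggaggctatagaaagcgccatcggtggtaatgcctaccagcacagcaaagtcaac
Rsph3a and Rsph3b had 15 mismatches and 54 gap bases over 1602 aligned coding bases, an identity of 95.7%, and capitals mark the 3 bases of Rsph3b that differ among the first 120.
Rsph3a: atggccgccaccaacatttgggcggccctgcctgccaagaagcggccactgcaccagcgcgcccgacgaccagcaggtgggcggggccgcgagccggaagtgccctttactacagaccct
Rsph3b: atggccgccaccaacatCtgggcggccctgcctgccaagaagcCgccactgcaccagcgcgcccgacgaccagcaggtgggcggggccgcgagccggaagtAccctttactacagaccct
Tagap and Tagap1 were 99.1% identical over 1381 aligned bases of their coding sequences of 2142 and 1515 bases, and the stretch from coding base 916 to 1035 of Tagap shows 1 difference in capitals.
Tagap: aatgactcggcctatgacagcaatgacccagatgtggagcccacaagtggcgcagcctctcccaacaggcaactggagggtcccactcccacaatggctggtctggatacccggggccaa
Tagap1: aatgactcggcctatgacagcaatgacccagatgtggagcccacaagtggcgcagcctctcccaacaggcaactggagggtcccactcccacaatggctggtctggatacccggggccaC
The 777 coding bases of Rnaset2a and Rnaset2b were identical throughout. The coding sequence of Tmem181a, which encodes a membrane protein, matched the pseudogene transcript of Tmem181b-ps at every base over 454 bases and that of Tmem181c-ps at 95.9% over 1386 bases, and the stretch from coding base 1017 to 1136 is the same in all 3.
Tmem181a: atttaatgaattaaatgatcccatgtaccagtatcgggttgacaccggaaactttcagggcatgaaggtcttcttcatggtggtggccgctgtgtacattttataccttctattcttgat
Reads from such stretches can match more than 1 copy. How the counting treated them is not given in the labels or notes, so the level of each single copy is uncertain.

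Total counts ran from 27933505 to 56082520 per library, and the 49 genes took between 0.106% and 0.136% of each total. Lars2, AY036118 and Yam1, whose counts are treated here as rRNA-like and as a measure of library quality, together took on average 15.9% of the counts in WT control, 20.3% in R47H control, 18.3% in WT induced and 17.04% in R47H induced libraries. Levels are given as CPM, counts scaled to a common library total after TMM scaling. Trem2, which lies on the same chromosome outside the window (chr17:48346401-48354147), measured 6.40 ± 0.37 CPM in WT control, 7.89 ± 0.97 in R47H control, 6.61 ± 1.43 in WT induced and 6.62 ± 0.53 in R47H induced mice (SD, n = 6). Slc17a7, the vesicular glutamate transporter of cortical excitatory neurons, ranged from 826 to 1026 CPM over all libraries, and 10 listed genes of these neurons summed to between 1538 and 1736 CPM. Striatal genes were also high in every group, with a sum over 16 listed genes of 1932 to 2448 CPM; these sums are not per length and are not compared with each other. The lymphocyte markers Cd3e and Cd8a were below the filter on low counts, with 95 and 100 counts summed over the 24 libraries.

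Before any comparison, 4 libraries stood apart, and Tmem181b-ps shows them best. WT control read 124, 73.0, 126, 123, 124 and 91.5 CPM in replicates 1 to 6 (median 124). R47H control read 72.6 CPM in replicate 1 and 31.3, 35.1, 32.04, 29.3 and 29.999 CPM in replicates 2 to 6 (median 31.7). WT induced read 116, 120.3, 124, 116, 127.5 and 106 CPM, and R47H induced read 35.01, 76.8, 30.9, 30.1, 30.7 and 34.5 CPM (medians 118 and 32.7). Of the 24 libraries, 10 WT libraries thus lay at or above 106 CPM and 10 R47H libraries at or below 35.1 CPM, with WT control replicates 2 and 6, R47H control replicate 1 and R47H induced replicate 2 in between. The same libraries fell between the others at further genes of the window. Among the other 14 genes called in both treatments, WT control replicates 2 and 6 were the WT control libraries nearest to the R47H control mean in 7 (50%), R47H control replicate 1 was the nearest to the WT control mean in 9 (64.3%), and R47H induced replicate 2 was the nearest to the WT induced mean in 10 (71.4%). For the 392 genes of other chromosomes called in both treatments these shares were 9.69%, 16.8% and 21.7%, and for the 77 genes elsewhere on chromosome 17 they were 26%, 40.3% and 71.4%. The 4 libraries were picked by their Tmem181b-ps level, so results without them are a description only, and the cause of their levels was not tested.

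**Figure D1:**
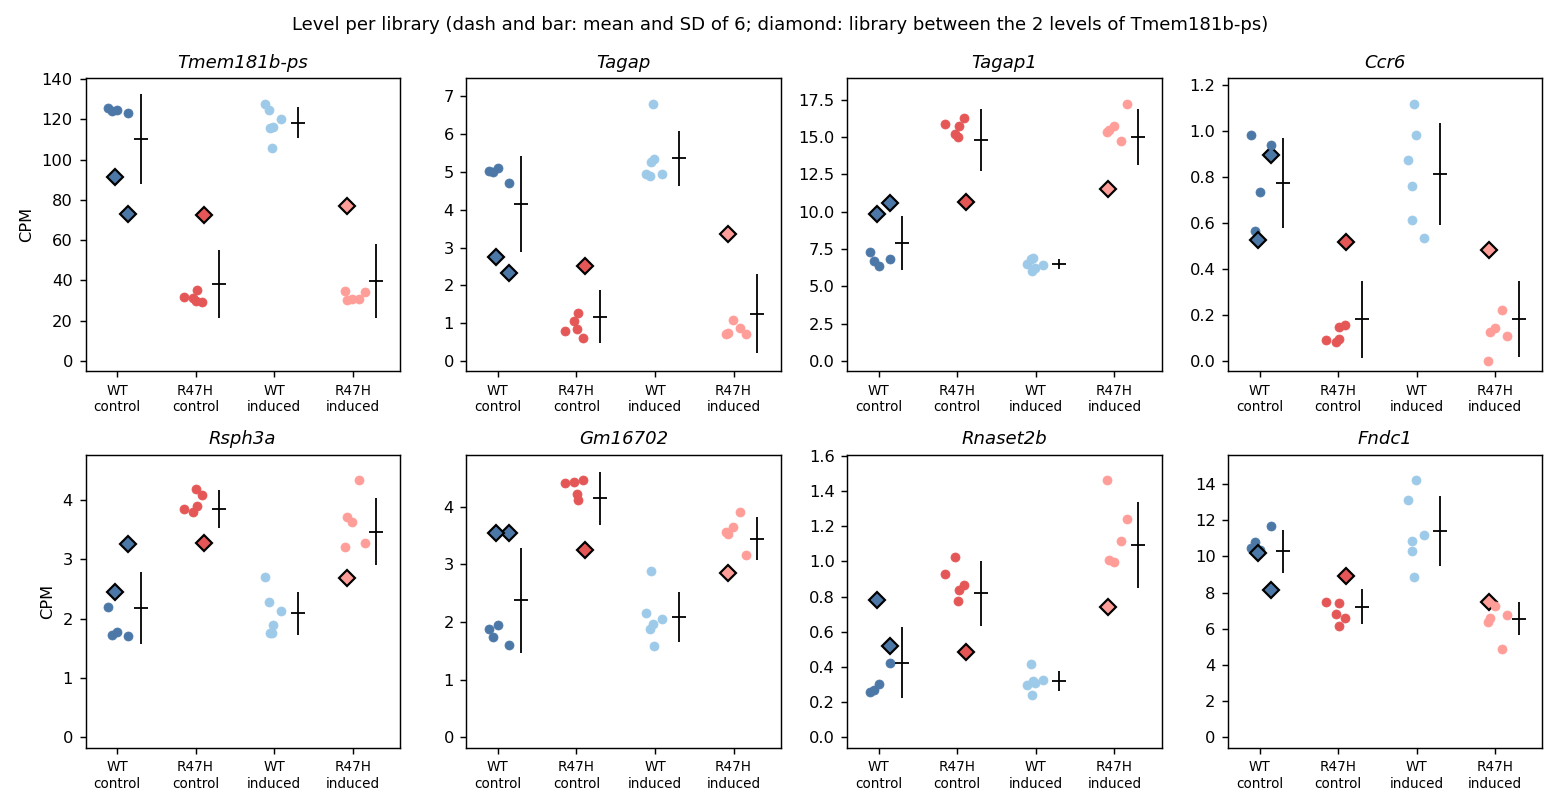
Level in CPM (vertical axes) of 8 genes of the window in each of the 24 libraries, by group; the dash and bar give the mean and SD of 6, and diamonds mark the 4 libraries that lie between the 2 levels of Tmem181b-ps. At Tmem181b-ps the diamonds read 73.0, 91.5, 72.6 and 76.8 CPM, and the same libraries also lie between the others at Tagap and Tagap1.

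R47H minus WT was compared within each treatment, which asks how the 2 TREM2 genotypes differ with and without tamoxifen. A gene is called here when its adjusted p in edgeR, fitted over the whole table, was below 0.05. In control mice 17 of the 49 genes were called (34.7%), 10 lower and 7 higher in R47H, where 5.74% of the 19678 tested genes were called, 3.04% lower and 2.69% higher. Induced mice gave 18 of 49 (36.7%), 11 lower and 7 higher, where 5.8% of all tested genes were called, 3.22% lower and 2.59% higher. Without any scaling beyond library totals, 17 genes were called in control mice, 13 lower and 4 higher, and 14 of them were among the 17 called with scaling. That setting moved the whole table, with a median of -0.06 log2 and 1142 genes called lower and 191 higher. The split of 13 and 4 is thus not particular to the window. Both treatments called the same 15 genes in the same direction (30.6% of the 49, where 2.46% of all tested genes were called in both), and these comparisons use different mice. The 6 libraries of one genotype all lay above the 6 of the other for 7 genes in control mice (14.3%, background 3.18%) and for 11 in induced mice (22.4%, background 3.25%). Since the window was proposed with these differences known, nothing is read from the counts against their background.

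The sizes of the differences were unequal. The median difference over the 49 genes was -0.07 log2 in control and -0.05 in induced mice, where that of all tested genes was -0.0012 and 0.0016. Ignoring sign, the median was 0.19 and 0.23 log2 against 0.080 and 0.077 for all tested genes. The sign of the difference was the same in both treatments for 37 of the 49 genes (75.5%), where 64.3% of all tested genes kept theirs. Across the 49 genes, Pearson's r between the control and induced differences was 0.936 and Spearman's coefficient 0.816, against 0.485 and 0.334 over all tested genes; genes are not independent replicates, and these are descriptions.

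**Figure D2:**
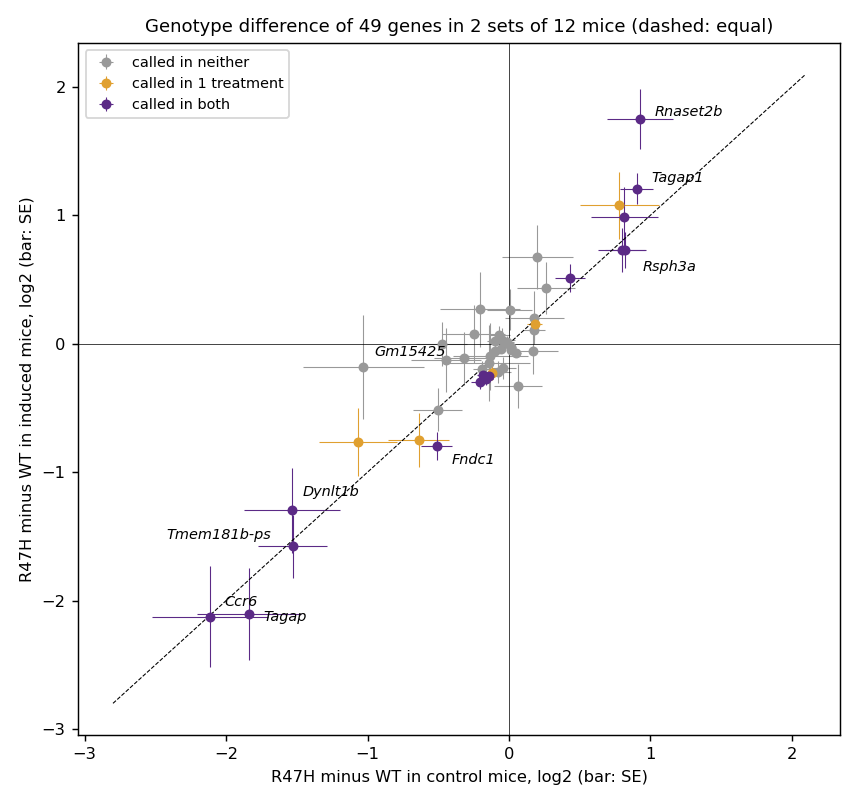
R47H minus WT difference (log2) in control mice (horizontal axis) against that in induced mice (vertical axis) for the 49 genes, with SE bars; the dashed line marks equal differences, and the colours show in how many treatments a gene was called. Ccr6 lies at the low end at -2.11 and -2.13, next to Tagap, and Rnaset2b lies above the line at 0.93 and 1.75.

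Along the window, the called genes began after a stretch without any. The 10 genes nearest to the start of the chromosome, ending with Ldhal6b, included no called gene, and among the 7 genes that start between 3 and 5 Mb the median difference ignoring sign was 0.099 log2 in control and 0.057 in induced mice. This stretch holds Scaf8, a binding partner of the RNA polymerase tail, Tiam2, an exchange factor for Rac, Tfb1m, a mitochondrial ribosomal RNA methyltransferase, and Arid1b, a subunit of the BAF chromatin remodelling complex. Arid1b read 102 to 108 CPM in WT control, 99.9 to 114 in R47H control, 99.96 to 107 in WT induced and 96.9 to 104 in R47H induced libraries, so all 4 ranges overlapped. Scaf8 differed by -0.06 ± 0.03 log2 (SE) in control and -0.04 ± 0.03 in induced mice, and Tiam2 by -0.10 ± 0.04 and -0.05 ± 0.04. Tfb1m differed by -0.07 ± 0.09 and -0.22 ± 0.09 log2 and the pseudogene Pisd-ps2 by 0.20 ± 0.25 and 0.68 ± 0.25 log2, with an adjusted p in edgeR of 0.144 and 0.127 in induced mice.

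The first called gene was Zdhhc14 (chr17:5492600-5753891) and the last was the lincRNA 6530411M01Rik (chr17:9147719-9167836), the last gene of the 49. In control mice, 1 of 6 genes was called between 5 and 6 Mb, 7 of 17 between 6 and 7 Mb and 4 of 5 between 7 and 8 Mb. Between 8 and 9 Mb it was 5 of 13, and beyond it was 0 of 1. In induced mice the counts for the same stretches were 2, 6, 4, 5 and 1. Over all tested genes, 5.74% were called in control and 5.8% in induced mice. The first 7 called genes, from Zdhhc14 to Ezr, were all lower in R47H, and the following pair, Tagap1 and Rnaset2b, was higher. Between 7 and 8 Mb Fndc1 was lower, E430024P14Rik higher, Tagap lower and Rsph3a higher. Genes not called lay among the called ones, such as Tulp4, a tubby-like protein gene, Gtf2h5, a subunit of the repair and transcription factor TFIIH, and Fgfr1op, a centrosome protein gene. With Rps6ka2 included, 34% of the 50 tested genes of the window were called in control and 36% in induced mice. In both treatments this was the first rank among 252 windows of 10 Mb with at least 20 tested genes. As the window was selected on these differences, nothing is read from its rank. The next windows of the chromosome held 11.8% and 22.1% (10 to 20 Mb), 16.7% and 20.2% (20 to 30 Mb) and, around Trem2, 20.2% and 23.9% (40 to 50 Mb).

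**Figure D3:**
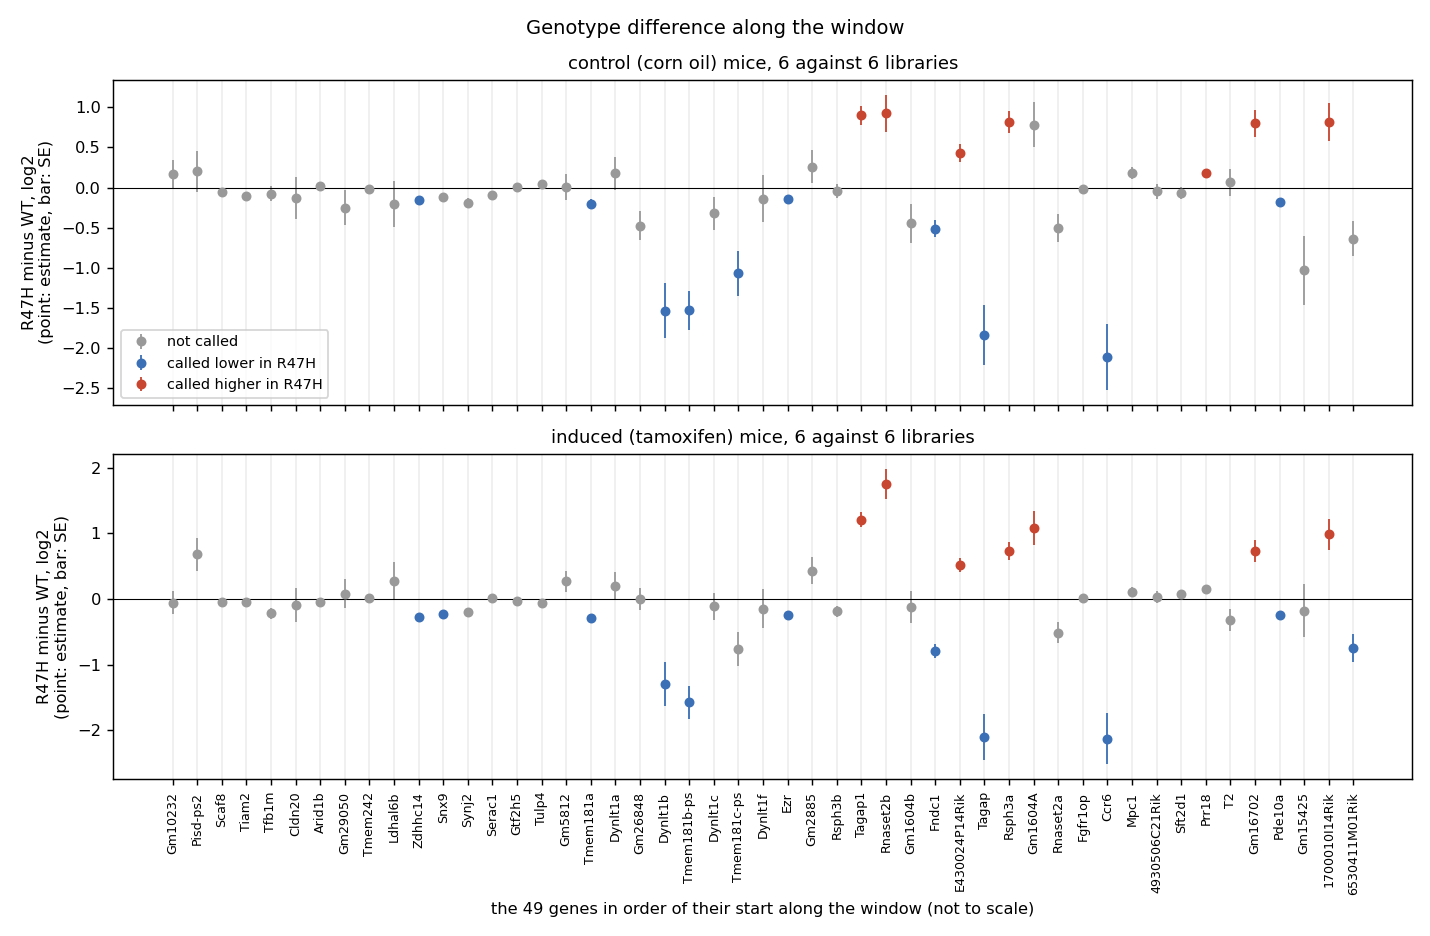
R47H minus WT difference (log2, with SE bars) of the 49 genes in control mice (top) and induced mice (bottom), in the order of their starts along the window and not to scale; colour shows the call and its direction. The 10 genes on the left are not called in either panel; the first 7 called genes to their right are lower, and genes of both directions follow.

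The largest differences towards lower levels in R47H were those of 2 immune genes. Ccr6 (ENSMUSG00000040899, chr17:8236043-8257127), the receptor through which CCL20 attracts lymphocytes, had few counts, from 0 to 49 per library. Its level was 0.528 to 0.982 CPM in WT control (median 0.816), 0.0831 to 0.518 in R47H control (median 0.122), 0.534 to 1.12 in WT induced (median 0.817) and 0 to 0.484 in R47H induced mice (median 0.135). The genotypes did not overlap in either treatment, and the highest R47H libraries were again control replicate 1 and induced replicate 2. The difference was -2.11 ± 0.41 log2 in control mice, 4.32-fold lower, and -2.13 ± 0.39 in induced mice, 4.37-fold lower. Without the 4 libraries named above it was -2.75 and -2.67.

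Tagap (ENSMUSG00000033450, chr17:7926000-7934897) was the other of the pair. It read 2.34 to 5.10 CPM in WT control (median 4.85), 0.602 to 2.52 in R47H control (median 0.945), 4.89 to 6.79 in WT induced (median 5.10) and 0.708 to 3.37 in R47H induced mice (median 0.809). WT control replicates 2 and 6, at 2.34 and 2.75 CPM, met R47H control replicate 1 at 2.52 CPM, so the control groups overlapped through these libraries alone, while the induced groups did not overlap. The difference was -1.84 ± 0.37 log2 in control and -2.10 ± 0.36 in induced mice, and without the 4 libraries -2.43 and -2.69. Its near copy Tagap1 (ENSMUSG00000052031, chr17:6954965-6961156) went the other way. Tagap1 read 6.33 to 10.6 CPM in WT control (median 7.06), 10.7 to 16.2 in R47H control (median 15.5), 6.05 to 6.88 in WT induced (median 6.48) and 11.52 to 17.2 in R47H induced mice (median 15.4), with no overlap in either treatment. It was higher in R47H by 0.90 ± 0.12 log2 in control and 1.21 ± 0.12 in induced mice. Summed over both copies the level was 12.1 ± 0.6 CPM in WT control and 15.97 ± 1.43 in R47H control, and 11.9 ± 0.9 in WT induced and 16.2 ± 1.0 in R47H induced mice (SD, n = 6), again without overlap, so both copies together were higher in R47H.

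Exons of Tagap are overlapped over 23.2% of their length by the antisense gene E430024P14Rik, which also overlaps Rsph3a, and the library kit does not mark strand. E430024P14Rik read 2.105 to 3.25 CPM in WT control (median 2.61), 2.52 to 4.18 in R47H control (median 3.62), 2.45 to 2.86 in WT induced (median 2.71) and 3.34 to 4.40 in R47H induced mice (median 3.79). It was higher in R47H by 0.43 ± 0.11 and 0.51 ± 0.11 log2, against the direction of Tagap and with that of Rsph3a, and its induced groups did not overlap. Reads of the 3 overlapping genes cannot be told apart where they overlap.

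The promoters of Tagap, its copy Tagap1, its neighbour Rsph3a and Ccr6 are shown because these 4 genes were called in both treatments and differed in direction. They are the 250 bases before the RefSeq start (GRCm38.p6, the mm10 build), at chr17:7925750-7925999 for Tagap, chr17:7945364-7945613 for Rsph3a and chr17:8235793-8236042 for Ccr6, all on the plus strand, and at chr17:6961157-6961406 on the minus strand for Tagap1. Capitals mark every match of the motifs searched on both strands. One motif was GGGCGG, the GC box, which 32.7% of all RefSeq promoter windows of this length hold. Another was GGAAGT, the core of ETS factor sites, held by 19.7%. The letters CCAAT, the core of NF-Y sites, are in 33.8% of the windows. The TATA box, searched as TATAAA, is in 12.4%, and the E-box, searched as CACGTG, is in 6.02%. None of the 5 motifs contains another.
Tagap: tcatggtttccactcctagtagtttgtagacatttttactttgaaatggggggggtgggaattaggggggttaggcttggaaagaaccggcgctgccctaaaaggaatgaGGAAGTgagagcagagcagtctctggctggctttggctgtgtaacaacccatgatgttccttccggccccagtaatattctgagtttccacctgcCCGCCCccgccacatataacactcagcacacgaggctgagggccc
Tagap1: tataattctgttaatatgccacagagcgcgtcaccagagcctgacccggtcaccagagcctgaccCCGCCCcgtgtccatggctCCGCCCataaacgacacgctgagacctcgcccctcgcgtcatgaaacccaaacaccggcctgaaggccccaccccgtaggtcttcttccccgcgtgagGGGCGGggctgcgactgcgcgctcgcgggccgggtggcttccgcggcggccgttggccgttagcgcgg
Rsph3a: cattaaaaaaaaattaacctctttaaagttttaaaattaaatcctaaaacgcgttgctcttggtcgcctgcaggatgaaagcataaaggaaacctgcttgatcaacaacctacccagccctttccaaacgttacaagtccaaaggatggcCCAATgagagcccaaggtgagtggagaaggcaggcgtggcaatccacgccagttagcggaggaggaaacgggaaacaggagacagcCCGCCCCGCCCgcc
Ccr6: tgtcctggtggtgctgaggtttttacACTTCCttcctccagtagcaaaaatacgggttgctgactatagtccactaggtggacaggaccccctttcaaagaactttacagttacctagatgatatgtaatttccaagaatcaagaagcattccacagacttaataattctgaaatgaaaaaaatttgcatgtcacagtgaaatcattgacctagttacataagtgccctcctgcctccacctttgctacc
The ETS core was in the windows of Tagap and Ccr6 and in a window of Tmem181a (chr17:6270220-6270469), all lower in R47H. It was also in that of Gm16702, which was higher. It was not in those of Ezr, Fndc1, Pde10a and 6530411M01Rik, which were called lower. Those of Tagap1, Rsph3a, Rnaset2b, Gm1604A, Prr18 and 1700010I14Rik, called higher, did not hold it either. Among genes called in neither treatment, Tfb1m, Gm2885, Rsph3b and Sft2d1 held the ETS core. A further RefSeq start of Ccr6 (window chr17:8242276-8242525) held none of the 5 motifs. Tagap, Tagap1 and Rsph3a each held a GC box. Most of the Tagap1 window, with all its GC boxes, is identical to part of the window of Fgfr1op (chr17:8165268-8165517). Fgfr1op was called in neither treatment. A match describes letters in these windows and is no sign of binding. In all, 35 of the 49 genes had a RefSeq promoter entry.

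Rsph3a (ENSMUSG00000073471, chr17:7945653-7979824) was higher in R47H while its copy Rsph3b was not called. Rsph3a read 1.71 to 3.26 CPM in WT control (median 1.98), 3.28 to 4.18 in R47H control (median 3.88), 1.76 to 2.70 in WT induced (median 2.01) and 2.68 to 4.33 in R47H induced mice (median 3.45). The control groups just missed each other, at WT replicate 2 and R47H replicate 1, and the induced groups overlapped by R47H replicate 2 alone. The difference was 0.82 ± 0.14 log2 in control and 0.73 ± 0.14 in induced mice, against -0.04 ± 0.09 and -0.19 ± 0.09 for Rsph3b. The summed pair was 5.09 ± 0.55 and 6.68 ± 0.33 CPM in WT and R47H control, without overlap, and 5.24 ± 0.63 and 6.23 ± 0.68 CPM in WT and R47H induced mice, with overlap (SD, n = 6). Of 8 listed genes of ependymal and other ciliated cells, 7 were tested and none was called in edgeR in either treatment; 5 and 6 of them had a positive difference, with a median of 0.23 log2 in control and 0.16 in induced mice. Their summed level was 10.2 to 13.3 CPM in WT control, 12.4 to 17.02 in R47H control, 10.8 to 13.6 in WT induced and 11.98 to 17.2 in R47H induced mice, and their part in the Rsph3a result was not tested.

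In the Rnaset2 pair the copies moved apart and the sum did not. Rnaset2b (ENSMUSG00000094724, chr17:6978860-7011299) read 0.260 to 0.782 CPM in WT control (median 0.362), 0.483 to 1.02 in R47H control (median 0.852), 0.243 to 0.416 in WT induced (median 0.315) and 0.739 to 1.46 in R47H induced mice (median 1.06). The control groups overlapped through WT replicates 2 and 6 and R47H replicates 1 and 6, and the induced groups did not overlap. The difference was 0.93 ± 0.23 log2 in control and 1.75 ± 0.23 in induced mice. Rnaset2a differed by -0.50 ± 0.17 and -0.51 ± 0.17 log2 and was not called in either treatment, though it was in both without the 4 libraries (-0.79 and -0.60). Both copies together measured 2.101 ± 0.322 CPM in WT control, 2.01 ± 0.21 in R47H control, 2.15 ± 0.39 in WT induced and 2.38 ± 0.25 in R47H induced mice (SD, n = 6), with overlapping groups. Since the 2 coding sequences are identical, reads lying within them match both copies. How far these counts rest on such reads was not tested, so the level of each copy is uncertain.

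The Tmem181 and Dynlt1 copies lie interleaved along the window, and their lower levels in R47H sat mainly in 1 copy of each. Tmem181b-ps (ENSMUSG00000096780, chr17:6438524-6467022), with the levels per library given above, was the second of the 49 genes by level per length, at 18.3 CPM per kb. Its difference was -1.53 ± 0.25 log2 in control and -1.58 ± 0.24 in induced mice, or -1.98 and -1.88 without the 4 libraries. Tmem181a read 16.3 to 19.0 CPM in WT control (median 17.8), 13.9 to 18.6 in R47H control (median 14.4), 17.8 to 19.4 in WT induced (median 18.1) and 13.8 to 16.7 in R47H induced mice (median 14.7). Tmem181a was lower in R47H by -0.21 ± 0.06 and -0.29 ± 0.06 log2, with overlap in control mice only. The pseudogene Tmem181c-ps, below 1 CPM in every library, differed by -1.07 ± 0.28 log2 in control and by -0.76 ± 0.26 in induced mice, where it was not called. Summed over the 3 copies the level was 128 ± 23 and 54.0 ± 17.6 CPM in WT and R47H control, and 137 ± 8 and 54.9 ± 19.2 in WT and R47H induced mice (SD, n = 6), without overlap.

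Dynlt1b (ENSMUSG00000096255, chr17:6430112-6436293) read 0.634 to 1.68 CPM in WT control (median 1.01), 0.123 to 0.759 in R47H control (median 0.308), 0.836 to 1.21 in WT induced (median 1.01) and 0.213 to 0.892 in R47H induced mice (median 0.333). The groups overlapped through R47H control replicates 1 and 2 and R47H induced replicate 2, which stood above the rest of their groups. The difference was -1.53 ± 0.34 log2 in control and -1.30 ± 0.33 in induced mice. Its 3 copies with identical coding sequence, Dynlt1a, Dynlt1c and Dynlt1f, were called in neither treatment, with differences between -0.32 and 0.20 log2. The 4 copies together measured 2.60 ± 0.28 and 1.90 ± 0.37 CPM in WT and R47H control, and 2.44 ± 0.18 and 1.89 ± 0.27 in WT and R47H induced mice (SD, n = 6), with no overlap. Dynlt1f was just inside the count rule, with 10 libraries above 10 counts, followed by Ccr6, Gm1604A and Gm15425 with 14 each. Just outside were Gm17087 with 4 such libraries, Gm8492 with 2 and Ppp1r2-ps1 with 1. The brachyury gene T, a mesoderm transcription factor of the t complex, had 31 counts in all and is not among the 49.

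**Figure D4:**
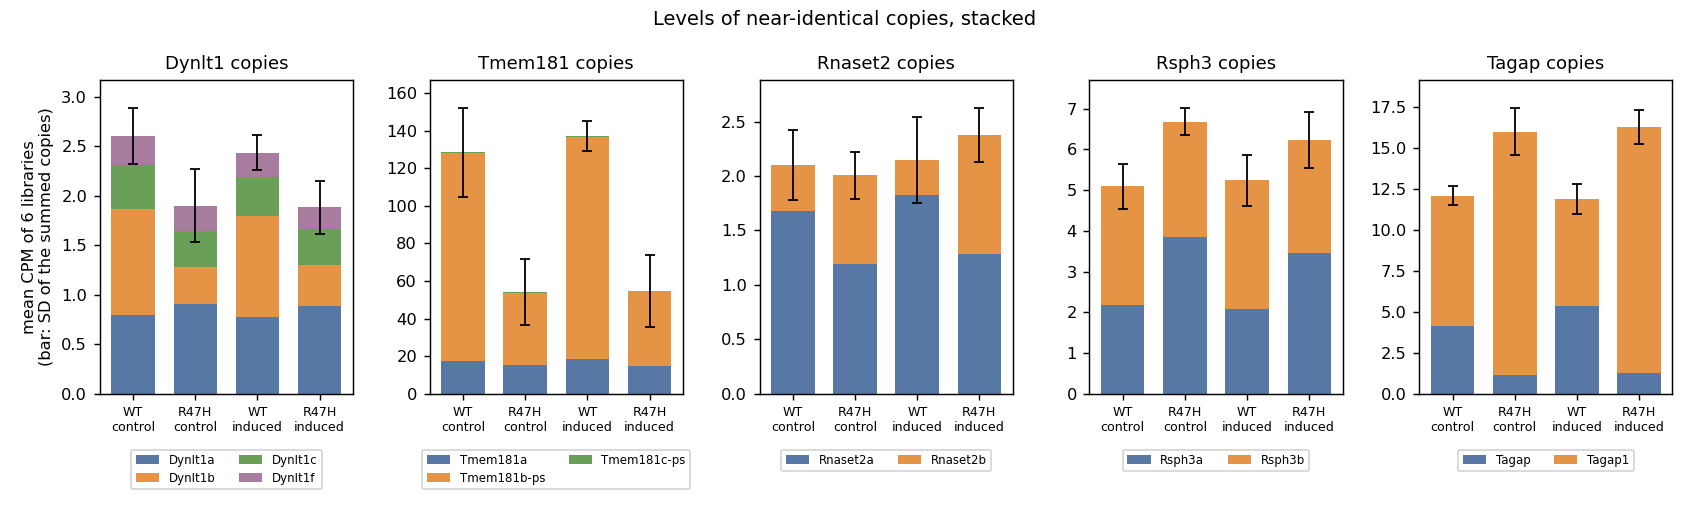
Mean level in CPM (vertical axes) of near-identical copies in 5 families, stacked, in the 4 groups of 6 libraries; the bar is the SD of the summed copies. Dynlt1b, Tmem181b-ps and Tagap shrink in R47H, Tagap1 and Rsph3a grow, and the Rnaset2 sum stays between 2.01 and 2.38 CPM.

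Ezr and Zdhhc14 were called lower in R47H in both treatments, by small amounts. Ezrin (Ezr, chr17:6738041-6782784), which links the membrane to actin filaments, read 45.7 to 50.3 CPM in WT control (median 46.0), 40.3 to 45.4 in R47H control (median 42.7), 46.4 to 51.1 in WT induced (median 50.01) and 39.5 to 46.5 in R47H induced mice (median 41.1). It was lower by -0.14 ± 0.04 log2 in control mice, without overlap, and by -0.25 ± 0.04 in induced mice, where only R47H replicate 2 reached the WT range. The palmitoyltransferase gene Zdhhc14 read 27.6 to 30.8 CPM in WT control (median 29.97), 23.8 to 29.2 in R47H control (median 25.8), 28.1 to 31.6 in WT induced (median 31.1) and 24.2 to 27.3 in R47H induced mice (median 24.8). Its difference was -0.16 ± 0.05 and -0.27 ± 0.05 log2, with overlap in control mice only. Without the 4 libraries the control differences of Ezr and Zdhhc14 were -0.13 and -0.12 log2 and were not called. Snx9, a sorting nexin of clathrin-coated pits, was called in induced mice only (-0.23 ± 0.05 log2, against -0.12 ± 0.05 in control mice), and the 2 differences were not told apart by the interaction test reported below. Synj2, a phosphoinositide phosphatase of vesicle uncoating, differed by -0.19 ± 0.06 and -0.20 ± 0.06 log2 and was called in neither, with an adjusted p in edgeR of 0.0601 and 0.0543.

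Pde10a (ENSMUSG00000023868, chr17:8525372-8986648), which breaks down cAMP and cGMP in striatal medium spiny neurons, had the highest level per length of the 49 genes, at 23.8 CPM per kb. It read 282 to 340.3 CPM in WT control (median 319), 267 to 297 in R47H control (median 272), 305 to 346 in WT induced (median 332) and 265 to 293 in R47H induced mice (median 282). The control groups overlapped and the induced groups did not. It was lower in R47H by -0.18 ± 0.04 log2 in control and -0.24 ± 0.04 in induced mice. Without the 4 libraries Pde10a was at -0.15 ± 0.05 log2 in control mice and was not called there. Markers of the striatum, which borders the cortex, moved with it. Of 17 listed striatal genes other than Pde10a, 16 were in the table and tested, and 6 were called lower in control mice and 4 in induced mice, none higher; all 16 had a negative difference in both, with a median of -0.15 and -0.14 log2. Among them Penk, the enkephalin precursor, differed by -0.19 ± 0.05 and -0.29 ± 0.05 log2, and Drd2, a dopamine receptor, by -0.20 ± 0.06 and -0.22 ± 0.06.

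The 16 genes summed to between 2126 and 2448 CPM in WT control, 1965 and 2165 in R47H control, 2280 and 2447 in WT induced and 1932 and 2240.4 in R47H induced mice, and Drd2 read between 17.8 and 26.9 CPM over all libraries. Of 10 genes of cortical excitatory neurons, 2 were called lower in control mice and 1 in induced mice, with medians of -0.04 and -0.02 log2. With the mean log2 level of the striatal list as a covariate, Pde10a differed by -0.09 ± 0.05 log2 in control and -0.15 ± 0.04 in induced mice and was called in neither (adjusted p of 0.345 and 0.0691 in edgeR). The calls among the 49 genes then fell to 3 in control mice (Tmem181b-ps, Tagap1 and Rsph3a) and to 10 in induced mice, and those among all tested genes to 383 and 476. The striatal list was itself lower in R47H in both treatments, so this fit cannot separate its part from that of genotype. No conclusion is drawn from the lost calls. Under that covariate Tagap was -1.64 and -1.94, Ccr6 -1.93 and -1.98 and Tagap1 0.85 and 1.16 log2 in control and induced mice. The part of striatal tissue in these results was not tested further. With the rRNA-like share as covariate, 11 control calls and 19 induced calls were made among the 49 genes.

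**Figure D5:**
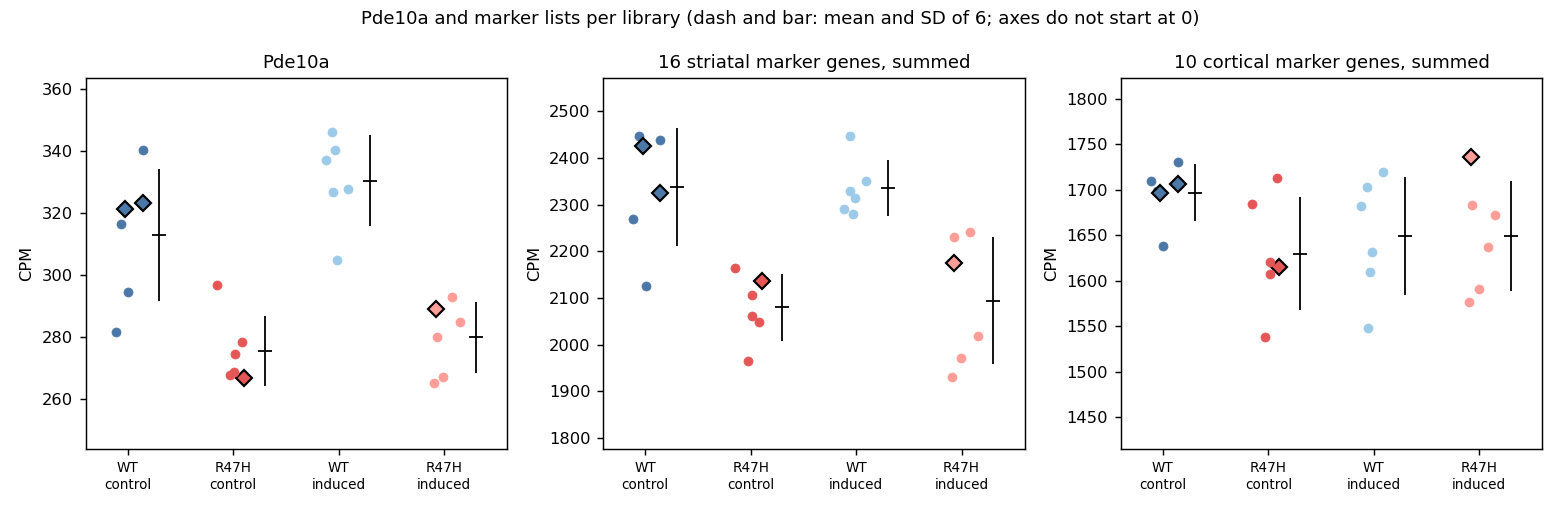
Level in CPM (vertical axes, not starting at 0) of Pde10a, of 16 striatal marker genes summed and of 10 cortical excitatory marker genes summed, in each of the 24 libraries by group; the dash and bar give the mean and SD of 6. Pde10a and the striatal sum are lower in both R47H groups, while the cortical sums of the 4 groups overlap.

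The remaining called genes were a matrix protein gene and several genes of little known function. Fndc1, which encodes a fibronectin type III domain protein, read 8.16 to 11.7 CPM in WT control (median 10.4), 6.18 to 8.91 in R47H control (median 7.11), 8.89 to 14.2 in WT induced (median 11.02) and 4.91 to 7.47 in R47H induced mice (median 6.69). The control groups overlapped only through WT replicate 2 and R47H replicate 1. Fndc1 was lower by -0.51 ± 0.11 log2 in control and -0.79 ± 0.11 in induced mice. The lincRNA Gm16702 read 1.61 to 3.55 CPM in WT control (median 1.91), 3.24 to 4.45 in R47H control (median 4.31), 1.58 to 2.89 in WT induced (median 2.002) and 2.86 to 3.91 in R47H induced mice (median 3.54). Gm16702 was higher by 0.80 ± 0.17 and 0.73 ± 0.17 log2, with WT control replicates 2 and 6 above R47H control replicate 1, and WT induced replicate 1 just above R47H induced replicate 2. For 1700010I14Rik the levels were 0.297 to 0.550 CPM in WT control (median 0.442), 0.602 to 0.969 in R47H control (median 0.801), 0.196 to 0.674 in WT induced (median 0.381) and 0.623 to 1.04 in R47H induced mice (median 0.788). It was higher by 0.82 ± 0.24 log2 in control mice, without overlap, and by 0.98 ± 0.24 in induced mice, with overlap.

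Prr18, a proline-rich protein gene, was called in control mice only (0.18 ± 0.05 log2, against 0.15 ± 0.05 in induced mice). Gm1604A and 6530411M01Rik were called in induced mice only, at 1.08 ± 0.26 and -0.75 ± 0.21 log2, against 0.78 ± 0.28 and -0.64 ± 0.22 in control mice. Summed with Gm1604b, whose sequence was not compared, Gm1604A measured 0.82 ± 0.24 and 0.82 ± 0.16 CPM in WT and R47H control. The sums were 0.75 ± 0.17 and 0.96 ± 0.18 CPM in WT and R47H induced mice (SD, n = 6), with overlap in both treatments. In GENCODE M21 a further gene, Gm49721, overlapped 51.9% of the exon length of Gm1604A and 20.4% of that of Rnaset2b. The M21 coordinates of both genes differ from the deposited ones, and the part of Gm49721 in their counts was not tested. Other genes of the window with well-known roles were called in neither treatment. Mpc1, a subunit of the mitochondrial pyruvate carrier, differed by 0.18 ± 0.08 and 0.11 ± 0.08 log2, Tulp4 by 0.05 ± 0.03 and -0.07 ± 0.03, and Fgfr1op by -0.01 ± 0.05 and 0.01 ± 0.05. Rps6ka2, left out by its name, differed by -0.11 ± 0.04 and -0.0035 ± 0.0444 log2 and was called in neither. A list of 29 paralogs and partners of the window's genes that lie elsewhere, such as Mpc2, Synj1, Pde2a and Tiam1, held no gene called in edgeR in either genotype comparison, with medians of 0.02 and -0.01 log2. None of the 8 microglial markers was called either, and their medians were 0.12 log2 in control and -0.09 in induced mice.

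Induction changed none of the 49 genes by the test used. In WT mice the edgeR fit called 0 of 49 and 0% of all tested genes, and an unadjusted p below 0.05 was reached by 2 of the 49 genes (4.08%, where 7.85% of all tested genes reached it). In R47H mice the fit again called 0 of 49 and 0% of all, with 4 genes below an unadjusted p of 0.05 (8.16%, background 5.11%). Limma-voom called none in either, and DESeq2 called none of the 49 and 10 and 4 genes of the whole table. The lowest p among the 49 in WT mice was that of Snx9, at 0.13 ± 0.05 log2 (adjusted p = 0.574 in edgeR), followed by Tagap1 at -0.29 ± 0.12 and Ezr at 0.08 ± 0.04. In R47H mice it was that of Arid1b, at -0.08 ± 0.03 log2 (adjusted p = 0.945 in edgeR), followed by T2 at -0.39 ± 0.17 and Gm26848 at 0.40 ± 0.18. The median change of the 49 genes was -0.0029 log2 in WT and 0.01 in R47H mice.

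The interaction test asked whether a gene's genotype difference was larger with or without tamoxifen. It called 0 of 49 genes and 0% of all tested genes in edgeR, with an unadjusted p below 0.05 for 2 of the 49 (4.08%, background 7.94%), none of the 49 in DESeq2 or limma-voom, and 3 genes of the whole table in DESeq2. The lowest p was that of Rnaset2b, whose difference was larger by 0.82 ± 0.33 log2 in induced mice, with a 95% interval of 0.17 to 1.47 before adjustment (adjusted p = 0.601 in edgeR). Tulp4 followed at -0.12 ± 0.05 and Ezr at -0.11 ± 0.06 log2. For Snx9, Prr18, Gm1604A, 6530411M01Rik and Tmem181c-ps, which were called in 1 treatment only, the genotype difference was therefore not shown to differ between treatments.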

How the data were processed

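One deposited table held whole-number counts of reads per gene for the 24 libraries, with no normalization; the authors named STAR 2.5.2b, featureCounts 1.5.1 and build mm10 in the submitters' processing notes. The notes do not say which counting options or annotation were used. Per the labels' protocols, poly-A RNA was prepared with the TruSeq kit v2, which does not mark strand. Exon overlaps came from GENCODE M21, which held 48 of the 49 genes, 27 with the same start and end; 26 had an exon overlapped by another gene. Copies were aligned with blastn 2.17.0.

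Groups came from the genotype and treatment labels, and replicate numbers only name libraries. The 60 pairs of libraries within groups differed by more than sampling noise (chi-square per degree of freedom 4.31 to 61.7), so each counted as 1 replicate. After filterByExpr and TMM scaling, the robust quasi-likelihood test of edgeR 4.0.16 in R 4.3.3 was run in 1 fit over 24 libraries, with Benjamini-Hochberg adjustment over 19678 genes and a threshold of 0.05. The procedure was tested on simulated data. Differences are log2 with their SE.

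The 49 genes, the marker lists, the partner list and the alternatives were chosen with earlier results of these data known. Genes were named if called in a genotype comparison, if they belong to a copy family or a preset panel of neuronal and housekeeping genes of the window, if they had 1 of the 3 lowest p-values in an induction or the interaction, or if first or last called; those called in both treatments have their levels by group. Alternatives were RLE scaling, library totals, other filters, DESeq2 1.42.0, limma-voom (limma 3.58.1), the 12 libraries compared, 2 covariates, each library left out and a threshold of 0.1. Removing 4 libraries together was added after seeing the data. One listed marker gene is not reported here.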

Additional observations from a re-analysis of the deposited data

Results flagged for a closer look

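In 18 of 196 series of 6 libraries (49 genes in 4 groups), the highest or lowest library lay far from the others by Dixon's test; chance marks about 1 in 20. Of these 18, 6 were R47H control replicate 1: Tmem181b-ps at 72.6 CPM (next 35.1), Tagap at 2.52 (next 1.26), Ccr6 at 0.518 (next 0.157) and 6530411M01Rik at 1.24 (next 0.617) were the highest of their group, and Tagap1 at 10.7 and Gm16702 at 3.24 (next 4.12) the lowest. In each of these genes that library lay on the side of the WT control mice. R47H induced replicate 2 was the highest of its group 4 times, at Tmem181b-ps with 76.8 CPM (next 35.01), Tagap with 3.37 (next 1.09), Dynlt1b with 0.892 (next 0.376) and Ezr with 46.5 (next 41.2), again on the WT side. The remaining 8 were in 8 different libraries. The highest of their group were Scaf8 in WT control replicate 4 (65.5 CPM), Tmem181c-ps in WT control replicate 3 (0.838), Gm1604A in WT control replicate 6 (0.402), Tagap in WT induced replicate 6 (6.79) and Mpc1 in R47H induced replicate 6 (25.7). The lowest were Tiam2 in R47H induced replicate 5 (61.0 CPM), Tmem181c-ps in R47H induced replicate 1 (0.0712) and Sft2d1 in R47H control replicate 5 (8.64). WT induced replicate 6 also had the highest summed level of 10 interferon response genes, 189 CPM, where the other groups did not exceed 46.4. WT induced replicates 1 and 4 followed at 61.6 and 63.3 CPM. In edgeR 7 of these 10 genes were called lower in R47H in induced mice, where 3.22% of all tested genes were, and 0 in control mice. WT induced replicate 6 also had the highest summed level of the 8 microglial markers, 345 CPM, where the other groups did not exceed 282.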

How the results depend on the processing

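The number of the 49 genes called was 17 in control mice and 18 in induced mice. It moved by more than 1.5 times with the rRNA-like share as covariate in control mice (11) and with the striatal list as covariate (3 in control and 10 in induced mice); elsewhere it ran from 15 to 21 and from 17 to 22. Leaving out each library in turn gave 13 to 17 and 17 to 20. Inductions and interaction stayed at 0 in every alternative run, leaving out each library included. Over all tested genes, 1129 and 1142 calls became 451 in control mice with the rRNA-like covariate, 383 and 476 with the striatal covariate, 510 in control mice without the 4 libraries and 1953 and 1853 at a threshold of 0.1. Library totals moved the median of all genes to -0.06 and 0.03 log2, and 14.3% of control calls over all genes were then higher in R47H, against 46.9% (63.8% against 44.6% in induced mice). Without the 4 libraries 15 control genes were called, 12 of them among the 17, and 21 induced genes, 18 of them among the 18. The control calls lost were those of Pde10a (-0.15 log2), Zdhhc14 (-0.12), Ezr (-0.13), Tmem181c-ps (-1.14) and 1700010I14Rik (0.93). Those gained were of Gm1604A (1.17 log2), Rnaset2a (-0.79) and 6530411M01Rik (-1.06).

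Leaving out 1 library changed the call of some genes. Zdhhc14 lost its call without any 1 of WT control replicates 1, 2, 4 and 6 and R47H control replicates 1, 2, 3 and 6. Tmem181a lost it without WT control 1, 3, 4 or 5, R47H control 2, 3, 5 or 6, WT induced 2 or R47H induced 3. Ezr lost it without WT control 2 or 3 or R47H control 1, 5 or 6, Prr18 without WT control 1, 4 or 6 or R47H control 2 or 5, Tmem181c-ps without WT control 3 or R47H control 6, and 1700010I14Rik without WT control 1, 2, 4 or 5 or R47H control 2, 3 or 4. In induced mice 6530411M01Rik lost its call without WT induced 1, 2 or 3 or R47H induced 1, 3 or 5. Control calls were gained by Synj2 without WT control 5 or R47H control 4, by Gm1604A without WT control 6, and by Rnaset2a and 6530411M01Rik without R47H control 1. Induced calls were gained by Synj2 without WT control 2 or 5, R47H control 1 or 4, WT induced 4 or R47H induced 3, by Rnaset2a without WT induced 5 or R47H induced 2, and by Prr18 without WT induced 1 or R47H induced 2.

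Changes of sign touched uncalled genes only. In control mice Arid1b became -0.046 with library totals and -0.0067 without R47H control replicate 5, Tulp4 -0.0090 with library totals, and Fgfr1op 0.0053 with the rRNA-like covariate, 0.0011 without WT control replicate 3 and 0.0088 without R47H control replicate 2; over all single libraries left out, Arid1b ran from -0.0067 to 0.031 and Fgfr1op from -0.033 to 0.0088. In induced mice Dynlt1f became 0.0011 without R47H induced replicate 3, and Fgfr1op -0.022 with the striatal covariate and -0.015 and -0.0013 without R47H induced replicates 1 and 6; over all single libraries left out, Dynlt1f ran from -0.41 to 0.0011 and Fgfr1op from -0.015 to 0.041. The causes were not tested. No paired analysis was possible because the labels number no replicates and the numbers used here follow accession order. Levels below about 1 CPM, as of Ccr6, Dynlt1b and Rnaset2b, rest on few counts.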
